A study of Mus musculus with 22 samples.

Results

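Nuclear receptors are transcription factors that bind small lipophilic ligands, such as retinoic acid, thyroid hormone, estrogens, oxysterols and bile acids. Some act with no known ligand. Most bind DNA as a monomer, a homodimer or a heterodimer with a retinoid X receptor. Their common DNA element is a core hexamer, placed alone or repeated at a set spacing. In adipose tissue the family is known above all for PPARγ, the master regulator of adipocyte identity, and members described here take part in lipid uptake and synthesis, thermogenesis, clock control and estrogen signalling. The 39 genes described here are nuclear receptor genes named in a list, without PPARγ and the others that are not analysed here, and they were 39 of 21,938 protein-coding loci. Each locus was the gene span on GRCm38 (GENCODE vM21) with 20 kb added on each side, and all peaks that overlapped it were counted. The loci held 287 of the 104,657 regions obtained by merging overlapping peaks of all libraries.

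ATAC-seq, in which a transposase cuts accessible chromatin, was run on 22 libraries of labelled adipocyte nuclei from male mice, and peaks were deposited per library with their total signal, which adds up the coverage at every base within it. All mice were AdipoERCre x NuTRAP, in which a tamoxifen-inducible Cre driven by an adipocyte promoter switches on a tag on the nuclear envelope, and biotin-labelled nuclei were pulled from snap-frozen epididymal fat. Tamoxifen, which is itself an estrogen receptor ligand, was given by gavage to the mice of every group, with a washout before the diets. Each library came from 1 mouse. Group C (18 weeks of age, n = 3) had chow throughout, and H (18 weeks, n = 3) had 12 weeks of high-fat diet. CC_s (26 weeks, n = 3) had chow throughout, and HC (26 weeks, n = 3) had 12 weeks of high-fat diet and then 8 weeks of chow, over which weight fell. In the longer arm the groups were CC_l (31 weeks, chow, n = 2), HH (31 weeks, 25 weeks of high-fat diet, n = 3), CCC (39 weeks, chow, n = 2) and HHC (39 weeks, 25 weeks of high-fat diet and then 8 weeks of chow, n = 3). By the study's methods, the chow of the weight loss period differed from the low-fat chow before it, and controls changed to it too. The sample codes in the labels have a different prefix in each arm, and what the prefix stands for is not given, so that duration and whatever it marks cannot be told apart.

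The libraries held 40,528 to 60,523 peaks that covered 128 to 299 Mb. Read counts were not used here, so the depth of each library is unknown. Promoters of adipocyte markers were open in every library (12 of 12), and their loci stood at a median percentile of 99.7 among all loci. The markers of other cells were open in part. Macrophage promoters were open at 4 to 9 of 12, endothelial at 2 to 12 of 12, progenitor at 7 to 11 of 12, mesothelial at 0 to 7 of 10 and lymphocyte at 1 to 3 of 12. Within a list the markers were uneven. Of the macrophage markers Cd68, Cd14 and Fcer1g had a promoter peak in all 22 libraries, Spi1 in 20 and Csf1r in 18, while Adgre1 had one in 2 and Itgam in 1. Of the endothelial markers Egfl7 and Cldn5 had one in 22, Cdh5 in 3 and Pecam1 in 2, and of the T cell markers Lck had one in 22 and Cd3e in 0. HC 3 and HHC 3 stood apart by weak peaks (median maximum signal 17 and 18, against 30 to 107 in the other 20 libraries) and by their correlation with the replicates of their group (0.70 to 0.74). Their macrophage loci had the highest median percentiles (66.9 and 69.5, against 29.9 to 49.2), but by log2 share of the library's locus signal macrophage loci were low there (8.33 and 8.18, against 8.33 to 9.01) and adipocyte loci lowest (10.5 and 10.1, against 10.9 to 12.3). HH 1 stood apart by open endothelial promoters (12 of 12), followed by HHC 3 (8), CCC 2 (7) and HC 3 (6), with 2 to 5 in the other libraries. HHC 3 also had the most open mesothelial promoters (7 of 10) and CCC 2 the most open progenitor promoters (11 of 12). With obesity 11 of 12 endothelial loci lay above 0 (median 0.57). The endothelial, progenitor and mesothelial lists each had 1 locus called higher. Of the mesothelial loci 3 lay above 0 and 5 below (median -0.33). Open mesothelial promoters were 0 to 1 of 10 in H and 0 to 2 in HH, against 2 to 5 in C and 3 in CC_l. After weight loss 8 of 12 endothelial and 9 of 11 macrophage loci lay above 0 (medians 0.46 and 0.18, 0 called). The 12 progenitor loci were split there (7 above 0 and 5 below, 7 at an unadjusted p under 0.05, median 0.35, 0 called). The part of these values in the results below was not tested. In bulk nuclei, fewer nuclei with an open site and less openness per nucleus cannot be told apart.

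Most nuclear receptor promoters were open in adipocyte nuclei. A peak within 2,000 bp of a transcription start was present in all 22 libraries for 24 of 39 genes (61.5%), in some libraries for 11 and in none for 4, whereas 9,562 of all 21,938 loci (43.6%) had a promoter peak in all libraries and 22.7% in none. In a single library 26 to 31 members had one. The median locus stood at percentile 59.8 for signal per kb, with 49.9 over all loci, and peaks covered a median of 16.9% of a member locus and 10.6% of any locus. A locus can hold other coding genes, so that a percentile describes the locus and not the receptor alone.

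Openness varied by subfamily and within it. All 6 retinoic acid and retinoid X receptor promoters were open in all libraries, from Rara (retinoic acid receptor α), at a median percentile of 94.3 (90.7 to 98.1 over 22 libraries), down to Rarb (retinoic acid receptor β), at 39.1 (29.03 to 54.2). Rarg, Rxra, Rxrb and Rxrg, of which the last 3 encode the shared dimer partners, lay between. Of the thyroid hormone and vitamin D receptors, Thra stood at 98.0 (96.5 to 99.5), in a locus that also holds the clock repressor Nr1d1 and Med24, and Vdr (vitamin D receptor) at 56.9 (40.3 to 65.8), with a promoter peak in 19 libraries. All 3 COUP-TF promoters (Nr2f1, Nr2f2 and Nr2f6, orphan receptors known as repressors and as regulators of development) and all 3 NR4A promoters (immediate-early receptors without a classical ligand) were open in all libraries. Nr2f6 stood at 96.7 (94.3 to 98.8) and Nr2f1 at 66.8 (40.2 to 81.6), and Nr4a1 at 88.4 (82.5 to 95.1) and Nr4a3 at 59.8 (53.4 to 71.8), with Nr2f2 and Nr4a2 between them. Esrra (estrogen-related receptor α, a regulator of mitochondrial genes) stood at 93.9 (87.4 to 96.8), and Ppard (PPARδ, a fatty acid sensor) at 74.2 (64.0 to 86.6). The other promoters open in all libraries were those of Thrb, Nr1d2 (the clock repressor REV-ERBβ), Rora, the oxysterol receptors Nr1h2 and Nr1h3, Nr2c1 and Nr2c2 (the orphan receptors TR2 and TR4), Esr1 and Nr6a1. Nr2c1 stood at 68.2 (60.5 to 73.7) and Esr1 at 45.9 (27.1 to 67.0).

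**Figure D1:**
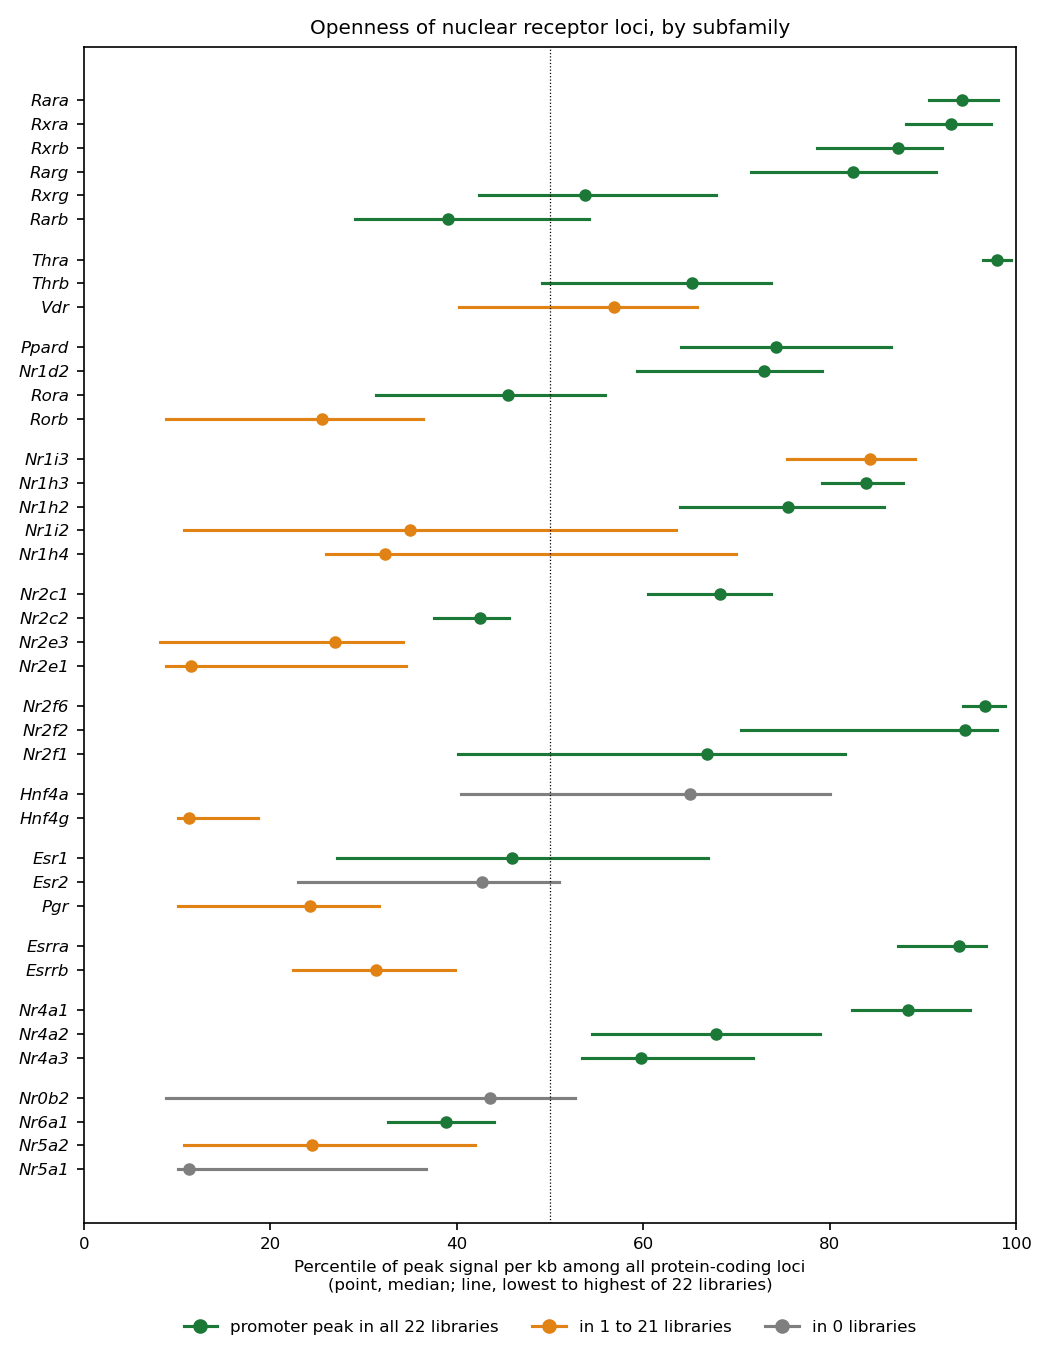
Openness of the 39 nuclear receptor loci by subfamily. The x axis is the percentile of peak signal per kb among 21,938 protein-coding loci, points are medians and lines run from the lowest to the highest of 22 libraries. Thra, at 98.0, and Nr2f6, at 96.7, lie far right, and Hnf4g, at 11.2, and Nr5a1, at 11.3, far left.

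The other 15 promoters had a peak in some libraries or none. No library had a promoter peak at Hnf4a (hepatocyte nuclear factor 4α), Esr2 (estrogen receptor β), Nr5a1 (SF-1, of steroidogenic tissue) or Nr0b2 (SHP, a bile acid-induced corepressor). Hnf4g had one in 1 library (HC 3), Nr2e3 (photoreceptor receptor) and Nr1i2 (pregnane X receptor, the xenobiotic sensor) in 2, Nr1i3 (constitutive androstane receptor) in 3, Nr1h4 (FXR, the bile acid receptor) in 5, Esrrb in 6, Nr2e1 (TLX, of neural stem cells) in 8, and Pgr (progesterone receptor) and Nr5a2 (LRH-1) in 13 each. Rorb had one in 21. The lowest percentiles of these subfamilies were 25.5 for Rorb (8.80 to 36.4), 32.3 for Nr1h4 (26.0 to 69.9), 11.5 for Nr2e1 (8.80 to 34.5), 24.3 for Pgr (10.1 to 31.7), 31.3 for Esrrb (22.5 to 39.8), 11.2 for Hnf4g (10.1 to 18.6) and 11.3 for Nr5a1 (10.1 to 36.7), and Nr0b2 stood at 43.6 (8.80 to 52.7). A closed promoter did not always mean a closed locus. Hnf4a stood at percentile 65.1 (40.4 to 80.1), with 3 to 11 peaks a library, and Nr1i3 at 84.3 (75.4 to 89.2) in a locus shared with 5 other coding genes, Apoa2 and Fcer1g among them. The locus of Nr5a1 had no peak in 16 libraries and that of Hnf4g none in 20.

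**Figure D2:**
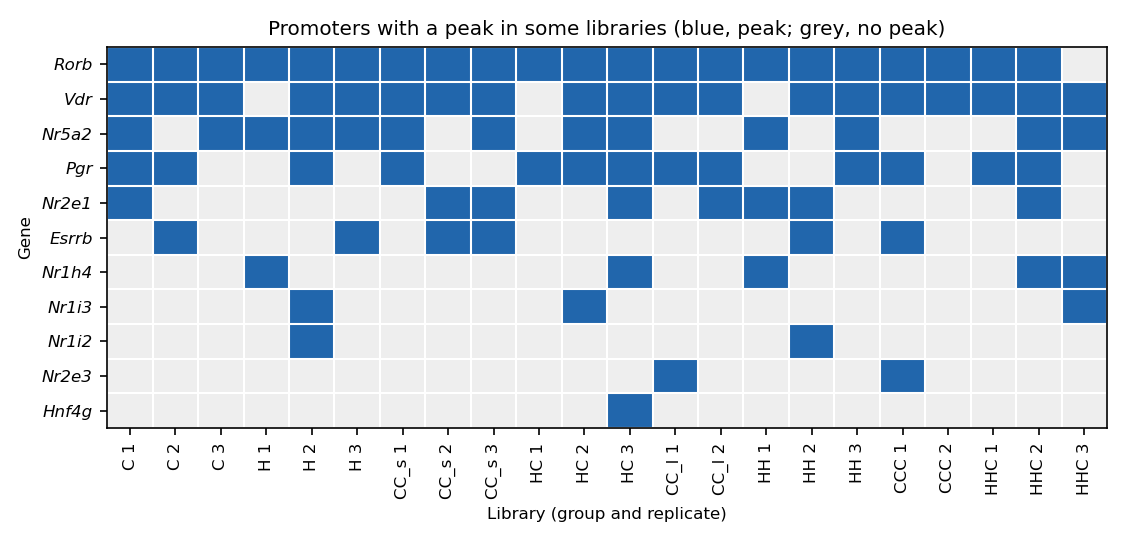
Promoter peaks of the members that had one in some of the 22 libraries. Columns are libraries and rows are genes, with a blue cell for a peak within 2,000 bp of a start and a grey cell for none. Rorb had a peak in 21 libraries, Pgr in 13 and Hnf4g in 1.

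Letters of the common hexamer were counted in the promoters, 250 bases before to 50 after a start, on both strands. RefSeq promoters (GRCm38) matched 36 of the 39 genes, with 52 windows. AGGTCA stood in 9 of the 52 (17.3%), with 16.3% of all 32,851 promoters, and at least 1 of 4 forms (AGGTCA itself, then AGTTCA as a variant, then also GGGTCA and lastly GGTTCA) in 42.3%, with 43.7% of all. A pair of these in the same direction with at most 5 bases between them was found in 1 member promoter (1.92%), with 0.907% of all promoters. That promoter is of Rarb, a gene known as a direct target of retinoic acid, and the pair lay 53 to 37 bases before the start with 5 bases between. The 30 bases that hold it are shown because the region over them is the one that rose in every high-fat-fed library (below). Capitals mark the hexamers; the strand is minus, at chr14:16575506-16575535, within an exon of a longer Rarb transcript.
Rarb repeat: gggaagGGTTCAccgaaAGTTCActcgcat
Letters that match a hexamer are a description and not a bound site. In 300-base windows at the summits of the 177 member regions tested below, AGGTCA stood in 23.2%, against 19.3% of the 49,133 windows of all regions tested, and a pair in 2.26% and 1.03%.

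The comparisons asked whether members differ with obesity, and whether differences remain after the weight loss phase. Signal was put on a common log2 scale by giving the strongest features of each library, in order of rank, the mean of the 22 libraries at that rank, and features without a peak, or below the ranks that all libraries hold, were set to a floor of 14.01 (regions) or 14.06 (loci). Differences below are in this log2 signal, and a difference from a group at the floor depends on where the floor lies. Libraries at the floor share 1 value, so p-values of such features, in the joint fit too, do not measure the full spread between mice. Obesity over both durations compared H and HH with C and CC_l, and weight loss compared HC and HHC with CC_s and CCC, in a single limma fit over 22 libraries; the comparisons share no library. Features passed a filter when above the floor in at least 2 libraries (in a pair, in at least the size of the smaller group), and a call is a Benjamini-Hochberg adjusted p under 0.05 over all features tested with a difference above 1.

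Of 39 loci, 38 passed the filter in the joint fit and Hnf4g did not. With obesity 1 locus was called (Nr1i2, higher), where 3.28% of all loci tested were called, and after weight loss 3 loci were called (Rarb higher, Hnf4a and Nr2f1 lower), where 1.07% of all loci were called. The median difference of the members tested was 0.02 with obesity (19 higher, 19 lower) and 0.08 after weight loss (22 higher, 16 lower), and both medians over all loci were -0.01. The members thus had no common direction. Leaving out CCC 2 ended all 3 calls after weight loss (adjusted p = 0.168 for Rarb, 0.101 for Hnf4a and 0.121 for Nr2f1), and leaving out HH 1 raised the calls with obesity to 3, with Esr1 and Rarb added.

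**Figure D3:**
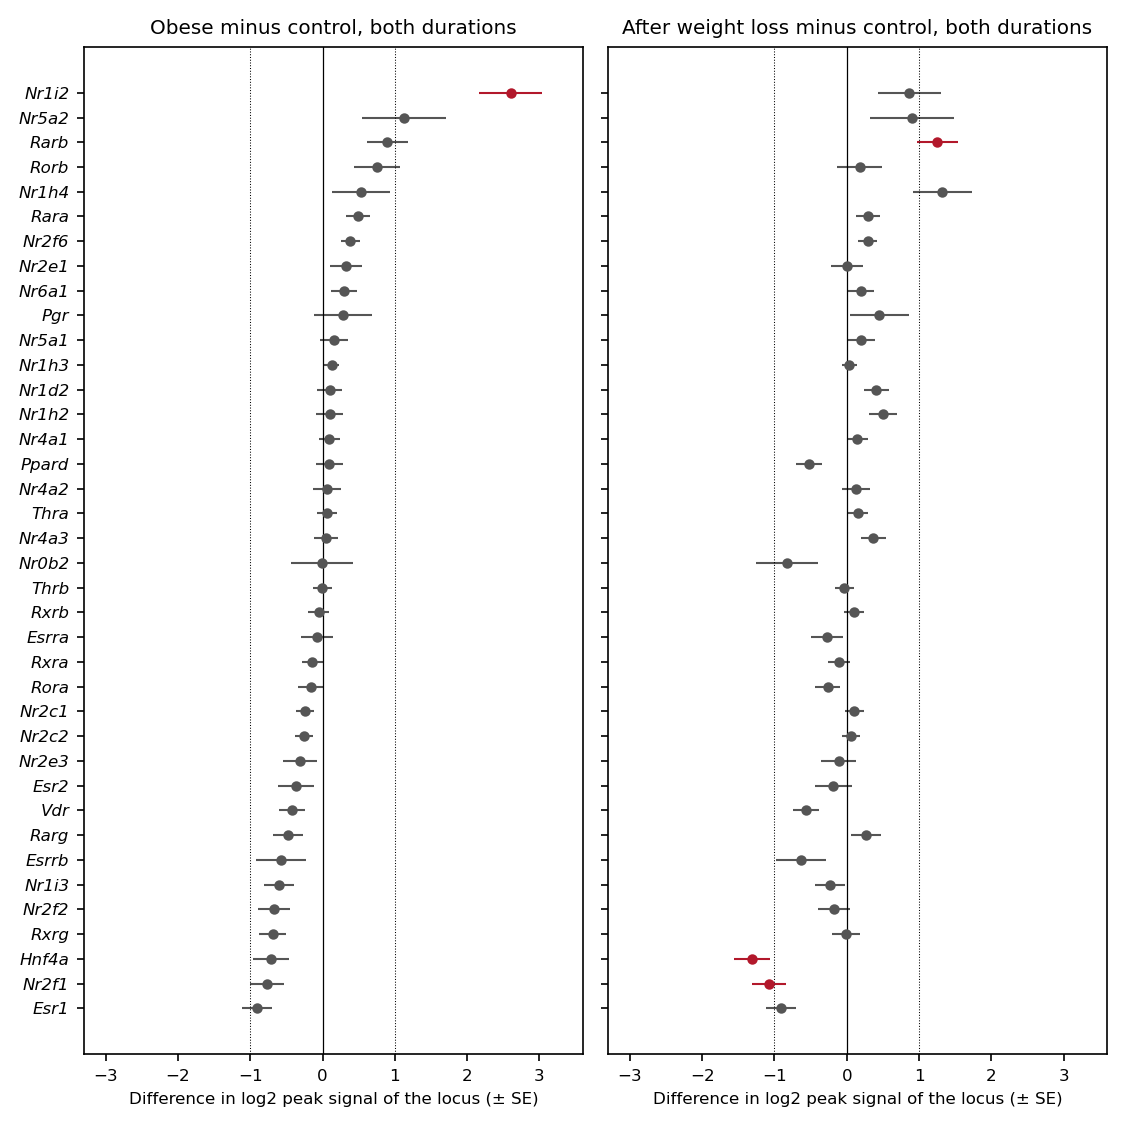
Differences in log2 peak signal of the 38 nuclear receptor loci tested, with obesity and after weight loss over both durations. Points are limma estimates and bars are standard errors. Nr1i2, at 2.60 with obesity, lies farthest right, and Hnf4a, at -1.31 after weight loss, farthest left of the loci called.

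Within the loci, 177 of 287 regions passed the filter. With obesity 8 member regions were called, where 3.13% of all regions were called. Of these 3 were higher (1.83% of all regions) and 5 lower (1.3% of all regions). After weight loss 4 were called, where 0.983% of all regions were called, 1 higher (0.197% of all) and 3 lower (0.786% of all). More member regions than regions at large lay below 0 in each comparison (62.1% against 48.1% with obesity, 62.7% against 48.2% after weight loss). Esr1 and Rora held many of them, and without these genes the shares were 52.8% (67 of 127) and 50.4% (64 of 127). The regions called in the joint fit lay in 6 genes, Esr1, Thrb, Rora, Nr1i2, Rarb and Nr2f1. Leaving out CC_l 2 reduced the calls with obesity from 8 to 4, with Esr1 (the promoter and not the 2 regions inside the gene), Thrb, Rora and the intronic Nr1i2 region lost.

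Esr1, the estrogen receptor α gene, which restrains adipose expansion and is expressed in adipocytes of both sexes, had the most regions called lower, 3 of the 5 with obesity and 2 of the 3 after weight loss. Its span is chr10:4611593-5005614 on the plus strand. Of its 29 union regions 16 were tested. With obesity 15 had a value below 0, with 5 at an unadjusted p under 0.05, and after weight loss 16 of 16, with 10 at an unadjusted p under 0.05. In either direction 23.2% and 16.4% of all regions had such a p. A region 335 kb inside the gene, chr10:4936423-4956669, which touches an exon, differed most. In the 12-week arm its log2 signal was 16.37, 16.30 and 15.61 in C, 14.01, 14.01 and 15.40 in H, 16.38, 16.80 and 16.76 in CC_s and 14.19, 14.01 and 14.01 in HC. The 25-week arm gave 15.26 and 16.03 in CC_l, 14.01, 14.01 and 14.01 in HH, 16.48 and 15.99 in CCC, and 14.74, 14.01 and 14.01 in HHC. A peak was present in 10 of 10 chow libraries and in 5 of the 12 that had had high-fat diet, and 11 of those 12 lay below every chow library. The exception was H 3. The difference was -1.62 ± 0.26 (SE, adjusted p = 0.00123, limma) with obesity and -2.28 ± 0.26 (adjusted p = 0.000646) after weight loss. In the pairs it was -1.62 for H against C (adjusted p = 0.0359), -2.57 for HC against CC_s (unadjusted p = 3.22e-05, adjusted p = 0.0688), -1.98 for HHC against CCC (unadjusted p = 0.00688) and -1.63 for HH against CC_l, with no test since all HH libraries were at the floor and the region passed that filter through CC_l alone. The weight loss difference minus the obesity difference, tested in the same fit, was -0.65 (adjusted p = 0.565, limma). Without HC 3 and HHC 3 the weight loss difference was -2.20 (adjusted p = 0.00161). With the 20,000 strongest peaks of each library alone the values shrank to -0.41 with obesity (adjusted p = 0.0996) and -0.73 after weight loss (adjusted p = 0.0165). The peak maxima of 14 of the 15 libraries with a peak lay within 1000 bp of the centre of the 300-base window shown here, chr10:4943890-4944189 on the plus strand, which holds no hexamer of the 4 forms and no exon base.
Esr1 335 kb window: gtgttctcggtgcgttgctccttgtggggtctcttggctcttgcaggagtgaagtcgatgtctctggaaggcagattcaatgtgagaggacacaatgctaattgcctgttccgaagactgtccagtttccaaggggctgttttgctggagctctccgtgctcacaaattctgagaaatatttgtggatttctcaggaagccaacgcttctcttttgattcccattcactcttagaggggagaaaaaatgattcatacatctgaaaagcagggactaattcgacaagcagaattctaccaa

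The second Esr1 region called in both comparisons lies 134.9 kb inside the gene at chr10:4740289-4752686 and touches an exon too. The values of the 12-week arm were 15.30, 15.88 and 15.49 in C, 14.01, 14.09 and 14.01 in H, 15.11, 15.64 and 16.03 in CC_s, and 14.59, 14.01 and 14.01 in HC. Those of the other arm were 15.01 and 14.67 in CC_l, 14.01 in all 3 HH libraries, 15.62 and 14.84 in CCC, and 14.26, 14.30 and 14.26 in HHC. All 12 libraries with a history of high-fat diet lay below every one of the 10 chow libraries, though the highest of them, at 14.59, and the lowest chow library, at 14.67, were close. The difference was -1.17 with obesity (adjusted p = 0.00219, limma) and -1.17 after weight loss (adjusted p = 0.00866). The second fell just short of the fold without CCC 1 (-0.98, adjusted p = 0.00624), and under median scaling it missed the threshold (-1.09, adjusted p = 0.0839).

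The upstream Esr1 promoter was lower with obesity. The region, chr10:4603161-4623375, had a peak in all 22 libraries. Values in the 12-week arm were 18.27, 17.91 and 17.35 in C, 16.09, 15.92 and 16.57 in H, 18.09, 17.78 and 18.07 in CC_s and 17.10, 16.97 and 17.23 in HC. The 25-week arm had 17.01 and 17.34 in CC_l, 16.92, 16.61 and 16.47 in HH, 17.95 and 17.80 in CCC, and 17.91, 17.34 and 17.33 in HHC. Every H library lay below every C library and every HC library below every CC_s library, whereas 1 of the 3 HHC libraries lay between the CCC libraries. The difference was -1.08 ± 0.17 with obesity (adjusted p = 0.00108, limma) and -0.61 after weight loss (adjusted p = 0.072). H against C gave -1.65 (adjusted p = 0.0095), and the obesity difference of the shorter arm minus that of the longer was -1.14 (adjusted p = 0.688), so a difference between the arms did not pass the threshold. Without C 1 (-0.97) or without CC_l 2 the obesity difference was just short of the fold, and by maximum signal in place of total signal it was -0.55 (adjusted p = 0.141). In H against C a region at a second Esr1 promoter (chr10:4706273-4739898, -1.01, adjusted p = 0.0242) was called too. The 250 bases before the upstream start, chr10:4611739-4611988 on the plus strand, are printed because this promoter region was called lower with obesity. They hold none of the 4 hexamer forms, and so no letters are in capitals.
Esr1 upstream promoter: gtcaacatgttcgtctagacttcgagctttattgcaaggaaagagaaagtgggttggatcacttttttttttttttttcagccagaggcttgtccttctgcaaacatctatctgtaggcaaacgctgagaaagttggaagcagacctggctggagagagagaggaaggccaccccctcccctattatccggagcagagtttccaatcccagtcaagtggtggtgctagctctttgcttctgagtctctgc
The Esr1 locus as a whole, which includes part of Syne1, gave -0.91 with obesity (adjusted p = 0.013) and -0.91 after weight loss (adjusted p = 0.0318), short of the fold needed for a call, and -1.33 in H against C (adjusted p = 0.0387), where it was called.

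Rarb moved up, and was the only member with a region called as higher in both comparisons. The gene, at chr14:16430839-16819156 on the minus strand, is a retinoic acid receptor that is itself induced by retinoic acid. The region, chr14:16563147-16578406, covers the promoter of an internal start, 248.4 kb from the first start, and holds the repeat printed above. Values in the 12-week arm were 15.09, 14.38 and 15.53 in C, 16.05, 16.19 and 16.24 in H, 15.78, 14.93 and 14.95 in CC_s and 16.36, 16.36 and 17.30 in HC. In the longer arm they were 15.34 and 15.31 in CC_l, 15.97, 16.51 and 16.45 in HH, 15.31 and 15.47 in CCC, and 16.51, 16.62 and 17.09 in HHC. A peak was present in all 22 libraries, and all 12 with a history of high-fat diet (15.97 to 17.30) lay above all 10 chow libraries (14.38 to 15.78). The highest 2 were HC 3 and HHC 3. The difference was 1.07 ± 0.24 with obesity (adjusted p = 0.00878, limma) and 1.40 ± 0.24 after weight loss (adjusted p = 0.00704). Without HC 3 and HHC 3, which stand apart as given above, the second was 1.15 (adjusted p = 0.014). H against C gave 1.16 (adjusted p = 0.037), a call lost in 10 of 13 alternatives, over which the value ran from 0.44 to 1.42. In the other pairs the difference was 1.45 (HC against CC_s, unadjusted p = 0.0046), 0.98 (HH against CC_l, unadjusted p = 0.0105) and 1.35 (HHC against CCC, unadjusted p = 0.00552), and none passed adjustment. By maximum signal both differences missed the threshold (0.61, adjusted p = 0.0743, and 0.80, adjusted p = 0.0577), as did obesity without CC_l 1 (1.08, adjusted p = 0.0615). The fold was missed with obesity without C 2 (0.92) and under median scaling (0.83, adjusted p = 0.0154), and in both comparisons with the 20,000 strongest peaks (0.85 and 0.80, adjusted p = 0.00724 and 0.0261). The maxima of 22 of 22 peaks lay within 1000 bp of the repeat's window. The region next to it was higher after weight loss by 1.21 without passing adjustment (unadjusted p = 0.00518, adjusted p = 0.108).

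The whole Rarb locus, which overlaps Top2b, was 18.58, 17.48 and 18.11 in C and 18.93, 18.82 and 19.03 in H, 18.51, 17.29 and 17.42 in CC_s and 18.47, 18.64 and 19.30 in HC. In the longer arm it was 17.97 and 18.08 in CC_l, 18.49, 19.10 and 19.28 in HH, 18.01 and 17.36 in CCC, and 18.78, 18.74 and 19.87 in HHC. HC overlapped CC_s in 1 library and the other 3 pairs did not overlap. The difference was 1.25 ± 0.28 after weight loss (adjusted p = 0.0301, limma) and 0.90 with obesity (adjusted p = 0.0568), and without HC 3 and HHC 3 the first became 0.94 (adjusted p = 0.0816). The call was lost in 11 of 20 alternatives, among them leaving out HC 3 (adjusted p = 0.0599), HHC 3 (0.0566), either CCC library or CC_s 2 or CC_s 3 (0.0577 to 0.168).

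**Figure D4:**
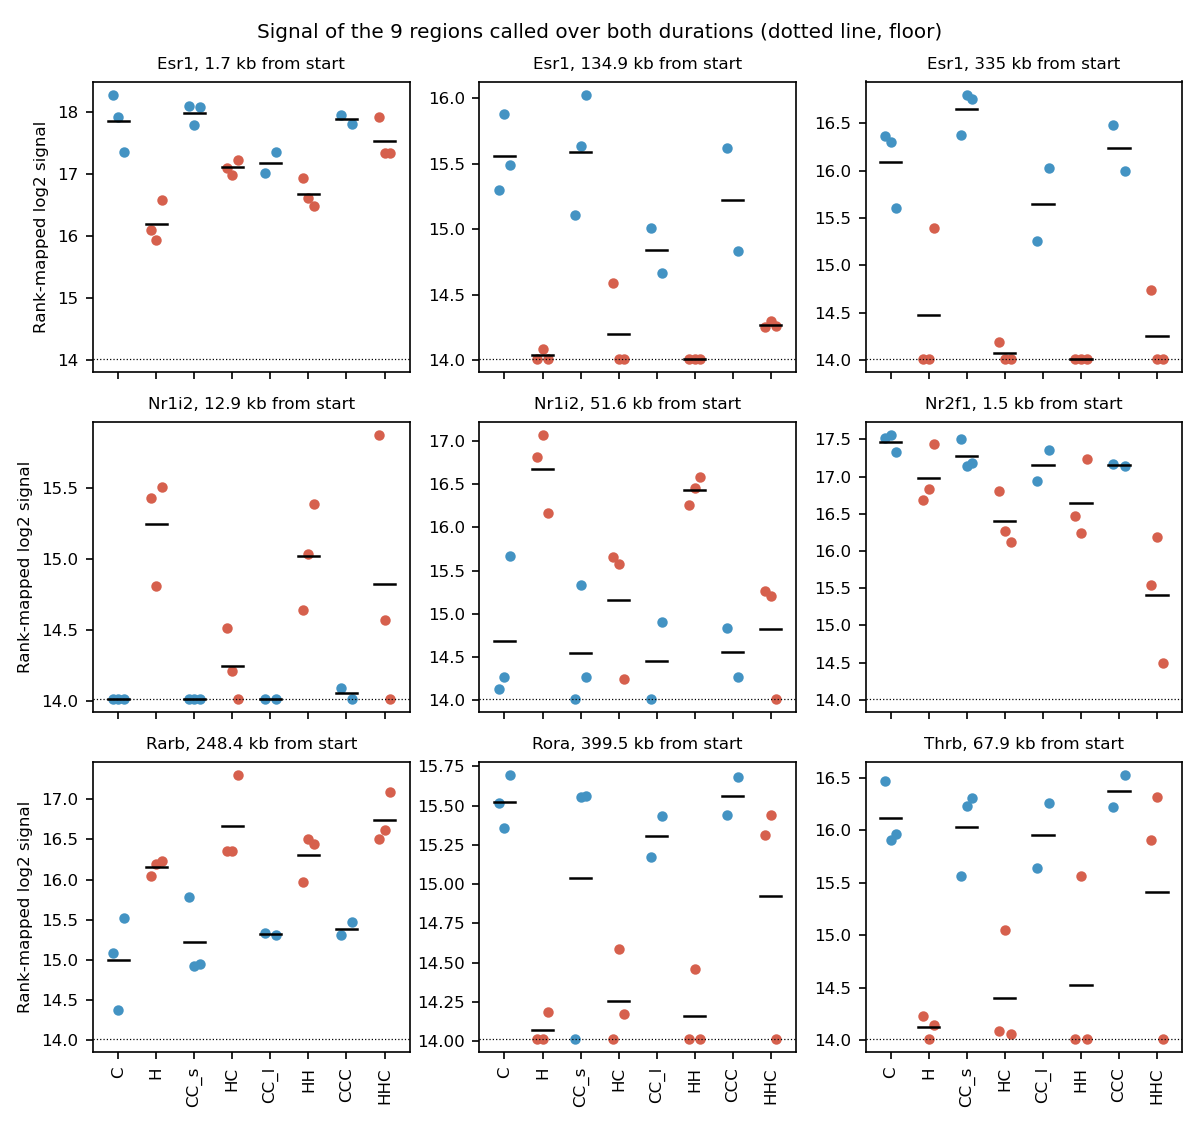
Rank-mapped log2 signal of the 9 member regions called over both durations, by group, with a point for each library. The dotted line is the floor of 14.01. In the Esr1 region at 335 kb every HH library lies on the floor, and in the Rarb region every high-fat-fed library lies above every chow library.

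Nr1i2 encodes the pregnane X receptor, a sensor of drugs and bile acids that is best known in liver and gut, and was higher with obesity. The gene lies at chr16:38248323-38294824 on the minus strand, and its locus also holds Gsk3b and Maats1. Locus signal in the shorter arm was 14.06, 14.78 and 16.32 in C, 17.44, 17.73 and 17.11 in H, 14.06, 15.73 and 15.08 in CC_s and 16.18, 16.01 and 15.52 in HC. That in the longer arm was 14.06 and 14.85 in CC_l, 17.16, 17.47 and 17.20 in HH, 15.48 and 14.24 in CCC, and 16.59, 15.86 and 14.47 in HHC. The 6 obese libraries lay above all others, and the groups after weight loss lay between, overlapping their controls. The difference was 2.60 ± 0.44 with obesity (adjusted p = 0.00205, limma) and 0.86 after weight loss, and the second minus the first was -1.74 (adjusted p = 0.35). H against C gave 2.37 (adjusted p = 0.0387) and HH against CC_l 2.83 (unadjusted p = 0.00012, adjusted p = 0.067). A chow library in each of C, CC_s and CC_l had the floor value, so that the size of the difference depends on the floor.

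Both called regions of this locus rose with obesity. The first, chr16:38229934-38256510, overlaps exons of Gsk3b and of Nr1i2, so that its signal cannot be credited to Nr1i2 alone. Its log2 signal was 14.13, 14.26 and 15.66 in C, 16.81, 17.07 and 16.16 in H, 14.01, 15.34 and 14.27 in CC_s and 15.66, 15.58 and 14.24 in HC. The longer arm had 14.01 and 14.90 in CC_l, 16.26, 16.45 and 16.58 in HH, 14.84 and 14.26 in CCC, and 15.27, 15.20 and 14.01 in HHC. The obese and control groups did not overlap, and HC and HHC overlapped their controls. The difference was 1.99 ± 0.37 with obesity (adjusted p = 0.00324, limma) and 0.45 after weight loss (adjusted p = 0.55). With the 20,000 strongest peaks alone the first was 0.47 (adjusted p = 0.186). The second, chr16:38279079-38284675, lies in an Nr1i2 intron 12.9 kb from the start. Its signal was at the floor of 14.01 in all C, CC_s and CC_l libraries, and 15.43, 14.81 and 15.51 in H, 14.51, 14.21 and 14.01 in HC, 14.64, 15.03 and 15.39 in HH, 14.09 and 14.01 in CCC and 15.88, 14.57 and 14.01 in HHC. Some chow libraries had a peak here, at or below the floor (2 of 3 in C and 2 of 3 in CC_s). It differed by 1.12 with obesity and 0.50 after weight loss. Since it passed the filter through libraries with a history of high-fat diet and 1 CCC library, with C and CC_l at the floor, its call, 1 of the 8 with obesity, is a description without weight as a test. With the 20,000 strongest peaks alone the difference was 0.02. The promoter had a peak in 1 H and 1 HH library alone. The maxima of 15 of 15 peaks fell within 1000 bp of this intronic window, chr16:38282538-38282837, printed on the minus strand as the rise that lies inside the gene. It holds none of the 4 hexamer forms.
Nr1i2 intronic window: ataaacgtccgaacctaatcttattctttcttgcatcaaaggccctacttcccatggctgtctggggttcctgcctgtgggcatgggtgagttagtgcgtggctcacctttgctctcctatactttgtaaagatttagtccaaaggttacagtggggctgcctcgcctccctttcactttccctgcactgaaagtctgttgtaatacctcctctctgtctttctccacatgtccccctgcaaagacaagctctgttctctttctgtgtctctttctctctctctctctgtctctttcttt

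Thrb, the thyroid hormone receptor β gene (chr14:17660261-18038090, plus strand), changed in 1 region while its locus did not (-0.01 with obesity). The region, chr14:17719701-17736615, is intronic, 67.9 kb from the start. In the 12-week arm it was 16.47, 15.91 and 15.97 in C, 14.23, 14.01 and 14.15 in H, 15.57, 16.23 and 16.31 in CC_s and 14.09, 15.05 and 14.06 in HC. The 25-week arm had 15.64 and 16.26 in CC_l, 14.01, 15.56 and 14.01 in HH, 16.22 and 16.53 in CCC, and 15.91, 16.32 and 14.01 in HHC. All H and HC libraries lay below their controls, while HHC overlapped CCC. The difference was -1.70 ± 0.38 with obesity (adjusted p = 0.00954, limma) and -1.30 after weight loss (unadjusted p = 0.00336, adjusted p = 0.0874). H against C gave -1.98 (adjusted p = 0.00567). The obesity call was lost without CC_l 2 (-1.55, adjusted p = 0.0842), by maximum signal (-0.83, adjusted p = 0.0989) and with the 20,000 strongest peaks alone (-0.26, adjusted p = 0.336). The maxima of 17 of 20 peaks lay within 1000 bp of the centre of the window chr14:17729207-17729506 (plus strand), shown with its hexamer letters in capitals.
Thrb intronic window: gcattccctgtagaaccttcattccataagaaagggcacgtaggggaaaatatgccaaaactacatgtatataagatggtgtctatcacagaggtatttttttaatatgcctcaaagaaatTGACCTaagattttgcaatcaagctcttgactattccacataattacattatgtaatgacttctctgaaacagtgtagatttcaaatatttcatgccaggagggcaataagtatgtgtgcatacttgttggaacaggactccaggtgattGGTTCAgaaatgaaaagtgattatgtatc

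Rora, the gene of RORα, an activator in the clock loop (chr9:68653786-69388246, plus strand), held 47 union regions, of which 34 were tested. With obesity 28 of them had a value below 0 and after weight loss 31, most by little (medians -0.13 and -0.23), with 9 (of 34) and 7 at an unadjusted p under 0.05, where 23.2% and 16.4% of all regions were. In H against C 18 of 20 lay below 0 and 3 were called. The region called over both durations, chr9:69049270-69057382, is intronic, 399.5 kb from the start. It was 15.52, 15.36 and 15.69 in C, 14.01, 14.01 and 14.19 in H, 14.01, 15.55 and 15.56 in CC_s and 14.01, 14.59 and 14.17 in HC. In the other arm it was 15.17 and 15.43 in CC_l, 14.01, 14.46 and 14.01 in HH, 15.44 and 15.68 in CCC, and 15.31, 15.44 and 14.01 in HHC. Obese and control libraries did not overlap. HC overlapped CC_s, through CC_s 1 at the floor, and HHC 2 lay level with CCC 1 to these digits. The difference was -1.30 ± 0.30 with obesity (adjusted p = 0.0114, limma) and -0.71 after weight loss (adjusted p = 0.243), and -1.45 in H against C (adjusted p = 0.00786). The call over both durations was lost without either CC_l library (adjusted p = 0.056 and 0.0669), by maximum signal (-0.82, adjusted p = 0.165) and with the 20,000 strongest peaks alone (-0.05, adjusted p = 0.409).

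**Figure D5:**
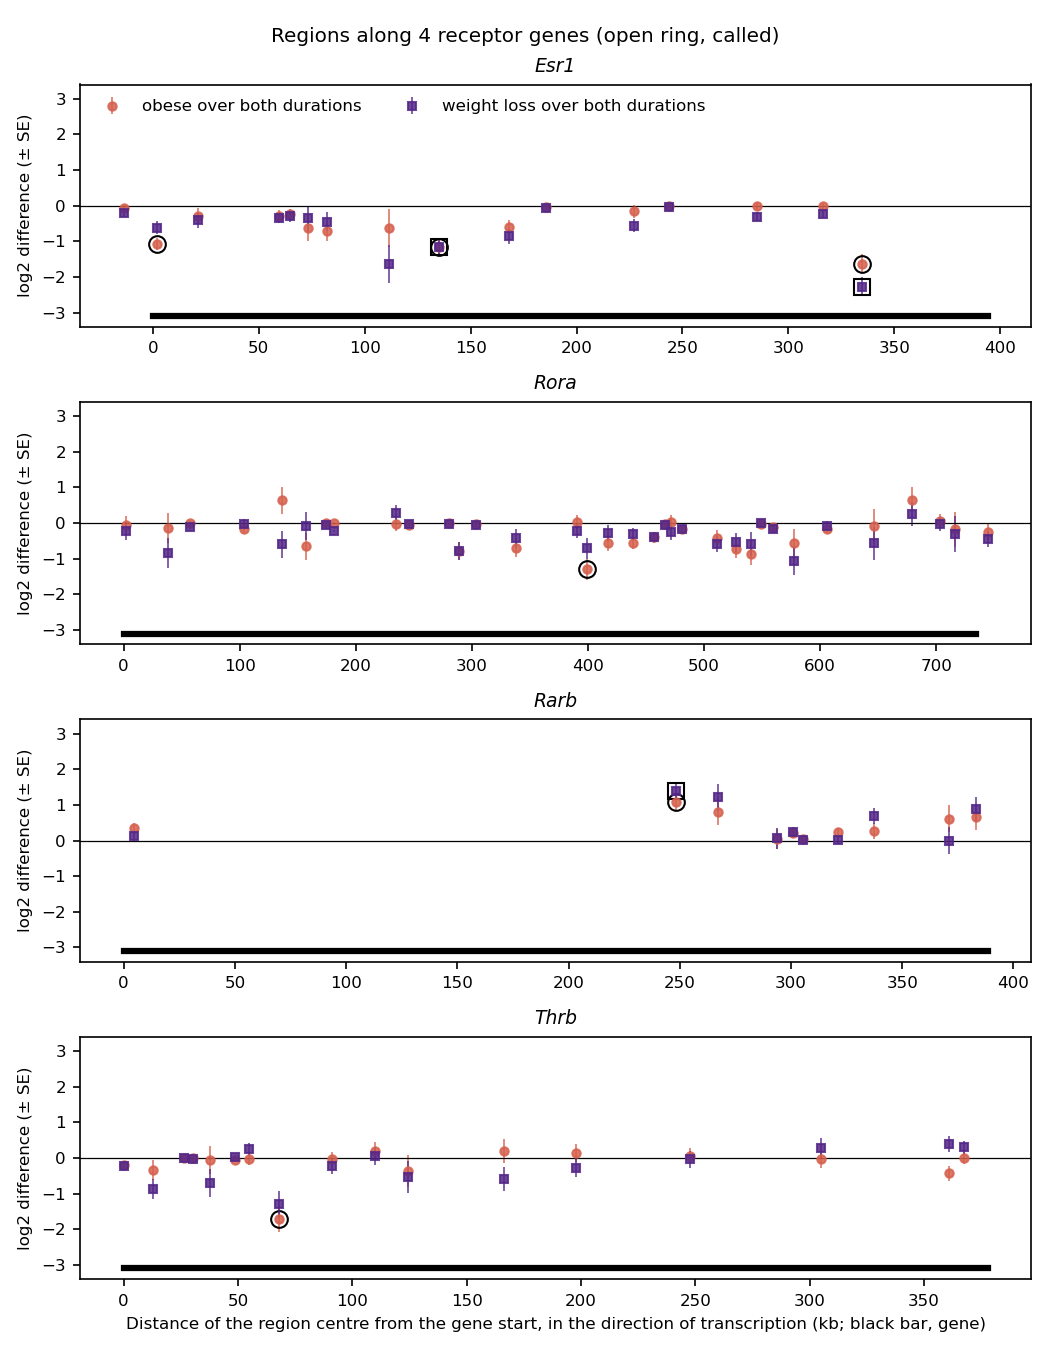
Differences in log2 signal of the tested regions along 4 receptor genes, against distance from the gene start in kb. Bars are standard errors, open rings mark called regions and the black bar is the gene. In Esr1, 15 of 16 regions lie below 0 with obesity and 16 of 16 after weight loss.

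With obesity the COUP-TF loci had no common direction, with Nr2f6 above 0 and Nr2f1 and Nr2f2 below, and none was called. Nr2f1 (COUP-TFI), a gene with no other coding gene in its locus at chr13:78188973-78199757 (minus strand), was called lower after weight loss. Its promoter region, chr13:78190177-78206258, was 17.52, 17.56 and 17.33 in C, 16.68, 16.84 and 17.44 in H, 17.51, 17.15 and 17.18 in CC_s and 16.81, 16.26 and 16.13 in HC. In the longer arm it was 16.94 and 17.36 in CC_l, 16.47, 16.24 and 17.24 in HH, 17.17 and 17.14 in CCC, and 15.54, 16.20 and 14.49 in HHC. The groups after weight loss did not overlap their controls, while H 3 and HH 3 lay within the range of theirs. The difference was -1.31 ± 0.26 after weight loss (adjusted p = 0.0153, limma) and -0.49 with obesity (adjusted p = 0.274), and the second comparison's value minus the other (weight loss minus obesity) was -0.82 (adjusted p = 0.452). Without HC 3 and HHC 3 the weight loss difference was -1.01 (adjusted p = 0.0236), without CCC 2 it was -1.32 (adjusted p = 0.0839), and by maximum signal -0.23 (adjusted p = 0.464). The locus fell by 1.07 on the log2 scale after weight loss (adjusted p = 0.0255), and by 1.14 (adjusted p = 0.0392) without HC 3 and HHC 3, and differed by -0.77 with obesity (adjusted p = 0.0504). The locus call was lost in 8 of 20 alternatives, among them leaving out CC_s 2, CC_s 3, either CCC library (adjusted p = 0.0553 to 0.121) or HHC 1 (by fold, -0.98), and by maximum signal (-0.26, adjusted p = 0.441). Nr2f2 (COUP-TFII, at chr7:70351944-70366735 on the minus strand) was called in H against C alone, in a region over its body and promoter, chr7:70328016-70372887. It was 19.39, 19.26 and 19.06 in C and 18.31, 17.59 and 18.62 in H, without overlap, with a difference of -1.06 (adjusted p = 0.0247), and -0.71 with obesity over both durations (adjusted p = 0.026). The call in H against C was lost in 8 of 13 alternatives, among them leaving out any C library, and the value ran from -1.86 to -0.57.

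Hnf4a, a master regulator of hepatocytes, has no open promoter in these libraries, and its locus at chr2:163506808-163572910 (plus strand, shared with R3hdml) was still lower after weight loss. It was 19.32, 19.24 and 18.98 in CC_s, 17.99, 18.03 and 17.45 in HC, 18.90 and 19.12 in CCC and 18.04, 18.40 and 16.80 in HHC. In the obese pairs it was 18.19, 19.08 and 18.40 in C, 17.85, 17.97 and 18.34 in H, 18.98 and 19.22 in CC_l and 18.37, 18.33 and 17.80 in HH. The 6 libraries after weight loss lay below their 5 controls, while H 3 lay above C 1. The difference was -1.31 ± 0.25 after weight loss (adjusted p = 0.0142, limma) and -0.72 with obesity (adjusted p = 0.083). Without HC 3 and HHC 3 the weight loss value was -0.98 (adjusted p = 0.0179), short of the fold. The locus call was lost in 5 of 20 alternatives. Among them were maximum signal, the gene span alone, and signal by the share of bases inside the locus. Its intronic region with a peak in all 22 libraries, chr2:163524742-163544211, gave -1.19 after weight loss (adjusted p = 0.0591). In the other named comparison a region at chr2:163552692-163564043 differed by -1.30 for HH against CC_l and for CCC against CC_l. All HH and CCC libraries were at the floor there and the region passed the filter through the 2 CC_l libraries alone, so that no test is given. It had a peak in 4 of 10 chow libraries and 0 of 12 with a history of high-fat diet.

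By pair, H against C had the most calls. Of 36 loci tested 2 were called (Nr1i2 higher, Esr1 lower), where 5.74% of all loci were called, and 14 of 130 regions, where 8.28% of all regions were called. Without C 2, 0 regions and 0 loci were called, and without H 1 or H 2 0 loci. Of the 14 regions 3 were higher (4.93% of all) and 11 lower (3.36% of all). One of the 3, the intronic Nr1i2 region, was at the floor in C and passed the filter through H alone. In all, 68.5% of member regions lay below 0 (60.6% without Esr1 and Rora), with 53.8% of all regions. A Vdr locus region, chr15:97835248-97842386, was among those lowered, at 15.78, 15.72 and 15.83 in C and 14.74, 14.01 and 14.20 in H (-1.46, adjusted p = 0.0126, limma). It lies at the promoter of Hdac7 and not of Vdr, and for HH against CC_l it differed by 0.03. A further 4 loci passed the adjusted p without the fold. Rara differed by 0.62 (adjusted p = 0.0151), from 19.31, 19.27 and 19.18 in C to 19.89, 19.90 and 19.83 in H, without overlap. Nr2f6 differed by 0.47 (adjusted p = 0.0411), Vdr by -0.87 (adjusted p = 0.0314) and Rxrg (retinoid X receptor γ) by -0.92 (adjusted p = 0.0464). Rxrg also differed over both durations with obesity (-0.69, adjusted p = 0.0345) but by -0.01 after weight loss (adjusted p = 0.988). Of the cell markers in H against C, 2 of 12 progenitor loci were called lower. The endothelial (9 tested) and mesothelial (7 tested) lists each had 1 locus called higher and 1 lower, and the other marker lists 0. Their part in the results of this pair was not tested.

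No member passed adjustment in the other pairs by limma, so that a looser rule, unadjusted p under 0.01 with a difference above 1, is given as a description. For HC against CC_s it marked 2 of 36 loci (Esr1 and Hnf4a; 1.54% of all loci) and 8 of 119 regions (2.54% of all regions), namely 3 in Esr1, 2 in Thrb and 1 each in Rarb, Vdr and Ppard. One of those in Thrb (chr14:17667007-17679136) had no signal above the floor in HC and passed the filter through CC_s alone. There were 24 member regions at an unadjusted p under 0.05 (20.2%, with 12.0% of all regions). For HH against CC_l it marked 1 of 37 loci (Nr1i2; 2.83% of all loci) and 4 of 135 regions (2.68% of all; in Rora, Nr1i2, Esr1 and Hnf4a, of which the last 2, the Esr1 region at 335 kb and the Hnf4a region above, passed the filter through CC_l alone and are no evidence), with 21 at an unadjusted p under 0.05 (15.6%, with 13.7% of all). For HHC against CCC it marked 0 of 36 loci (0.574% of all, with 5 loci at an unadjusted p under 0.05, 13.9% with 4.04% of all, namely Rarb, Nr2f1, Esr1, Hnf4a and Nr1h4) and 2 of 133 regions, in Rarb and Esr1 (0.706% of all, 11 regions at an unadjusted p under 0.05, 8.27% with 6.14% of all). Chow groups of different ages were compared too. The older group of each pair had also changed to another chow in the last weeks, so that age and chow cannot be told apart. CC_s against C had 0 of 36 loci (0.651% of all, 2 at an unadjusted p under 0.05, 5.56% with 5.44% of all, Hnf4a and Nr1h2) and 0 of 135 regions (0.615% of all, 12 at an unadjusted p under 0.05, 8.89% with 7.81% of all), and CCC against CC_l had 0 of 36 loci (0.981% of all, 2 at an unadjusted p under 0.05, 5.56% with 9.64% of all, Esr1 and Nr0b2) and 1 of 130 regions, the same in Hnf4a (0.982% of all, 16 at an unadjusted p under 0.05, 12.3% with 10.2% of all). In CCC against CC_l the Esr1 regions lay above 0 in 11 of 12 (median 0.43, 3 at an unadjusted p under 0.05), with 0.70 at the upstream promoter (unadjusted p = 0.0065, adjusted p = 0.471), and those of Rora in 22 of 25 (median 0.40, 6 at an unadjusted p under 0.05). These rest on 2 libraries a group. No member difference between the arms, or between the weight loss and the obesity comparison, passed adjustment by limma. At an unadjusted p under 0.05 the test of obesity by arm gave 1 of 38 loci, Vdr (2.63%, with 2.59% of all loci), and 10 of 177 regions (5.65%, with 4.33% of all regions). Weight loss by arm gave 1 locus, Rorb (2.63%, with 2.53% of all), and 6 regions (3.39%, with 3.55% of all). Weight loss against obesity gave 4 loci, Nr1i2, Rxrg, Rarg and Ppard (10.5%, with 10.2% of all), and 9 regions (5.08%, with 10.2% of all).

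Further single regions differed short of a call. A region inside Vdr, chr15:97877094-97882711, had a peak in all 10 chow libraries (14.37 to 15.69, median 14.77) and in 7 of 12 with a history of high-fat diet (14.01 to 14.71, median 14.01), and 9 of these lay below every chow library. It differed by -0.95 ± 0.19 after weight loss (adjusted p = 0.017, limma) and -0.59 with obesity (adjusted p = 0.064). A Ppard region, chr17:28274418-28292750, ran from 14.28 to 16.81 in chow libraries and from 14.01 to 16.58 in the others, so that the ranges overlapped. The loci of Nr1h4 and Nr5a2 varied widely between libraries. Nr1h4 ran from 15.12 to 16.40 (median 15.68) in the chow libraries and from 15.51 to 18.63 (median 16.39) in those with a history of high-fat diet, and Nr5a2 from 14.06 to 15.98 (median 14.31) and from 14.06 to 17.49 (median 15.53). The values of Nr1h4 above 17 were those of HHC 3 (18.63), HH 1 (17.51) and HC 3 (17.43), and every other library was at or below 16.69. Both ranges overlapped, and neither locus was called.

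The partners of these receptors were described in the same way, by locus. Of 20 coregulator genes tested, such as Ncor1 and Ppargc1a, 0 were called in each of the comparisons over both durations, where 3.28% of all loci were called with obesity and 1.07% after weight loss. At an unadjusted p under 0.05 by limma there were 4 with obesity and 8 after weight loss (22.9% and 21.7% of all loci). Below 0 lay 12 and 14 of the 20. Of 19 genes tested for enzymes that make or remove ligands, 1 was called, with obesity, a share near that of all loci. This was Dio3, the deiodinase that inactivates thyroid hormone (-2.001, adjusted p = 0.0016, limma), at -1.03 after weight loss (adjusted p = 0.0976). Among the same list Aldh1a1, which makes retinoic acid, was 0.83 higher (adjusted p = 0.0227) and Cyp26a1, which degrades it, 0.81 higher (adjusted p = 0.0361) with obesity. Of 24 textbook target genes tested 0 were called. Stra6, a retinol transporter induced by retinoic acid, differed by -0.82 with obesity (adjusted p = 0.0115), and Pdk4 (0.71, adjusted p = 0.0416), Acadm (0.65, adjusted p = 0.033) and Srebf1 (-0.44, adjusted p = 0.0497) after weight loss, all below the fold. The medians of the lists lay between -0.22 and 0.08. At an unadjusted p under 0.05 by limma were 8 and 5 of the 19 enzyme genes and 6 and 6 of the 24 targets, with obesity and after weight loss.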

How the data were processed

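Per the labels and the study's methods, the authors trimmed reads with Trim Galore 0.6.6, aligned them to mm10 (GRCm38) with Bowtie2 2.4.4, handled them with SAMtools 1.13 and bedtools 2.30 and called peaks per library with SEACR 1.3 (stringent mode, top 0.01). The deposited lists give each peak's total and maximum signal (summed and highest coverage). The study's methods state that peaks in blacklisted regions were removed. Whether this was done before deposit, and how coverage was scaled, is not given in the sources used here, and the depth of each library is unknown. Each library had 1 mitochondrial peak, which was not used.

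From these lists, overlapping peaks (at least 1 bp) were merged into 104,657 regions, and signal was summed by region and by locus of 21,938 protein-coding genes. Values were mapped by rank onto a common distribution (30,083 regions and 16,763 loci keep a rank). limma 3.58.1 (R 4.3.3, lmFit and eBayes with trend, Benjamini-Hochberg adjustment, 2-sided) tested all features that passed the filter. The code was run on simulated data for a pair of 3 against 3 libraries, with features whose C mean lay more than 1 above the floor. That check does not bear on values at the floor or on the joint fit. Python 3.11.15, numpy 2.4.6, pandas 2.3.3 and scipy 1.17.1 did the rest. p-values measure the spread between mice on the rank-mapped scale, and only in part where libraries are at the floor. Genes named with values were the highest and lowest locus of each subfamily by signal per kb, up to 6 called members a comparison by smallest p or, without calls, the 3 of smallest unadjusted p with a difference above 1, and others singled out after their values were seen (Vdr, Ppard, Nr1h4 and Nr5a2 at the end, Rara, Nr2f6 and Rxrg, and the named partners). Members and lists were chosen with earlier results of these data known. Alternatives were other scalings, filters, signals, peak numbers, loci and limma settings, fits with a replicate block, and fits without single libraries. The fit without both HC 3 and HHC 3 was added after seeing the data. Sequences of some called regions are not reported here.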

Additional observations from a re-analysis of the deposited data

How the results depend on the processing

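Counts of called members depended on settings more than the direction of the named results, none of which reversed. The Nr1i2 locus kept its call with obesity in 19 of 19 alternatives and the Esr1 region at 134.9 kb in 16 of 16 (15 of 17 after weight loss). The Nr1i2 value ran from 1.003, just above the fold needed, to 2.917. Rank choices limit what weak peaks can show, since features below the floor carry no value, and the read depth of each library is unknown. Leaving out C 2 ended every call in H against C.

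Against 2 called loci in H against C there were 0 without a filter or with a replicate block, and 1 with eBayes without trend, maximum signal or gene span alone, and 0 to 4 over the fits without 1 library. Called regions there (14) became 4 without a filter, 9 by maximum signal, 2 with the 20,000 strongest peaks and 0 to 13 without 1 library. With obesity over both durations, 1 locus became 2 under median scaling, 4 with the 20,000 strongest peaks and 1 to 3 without 1 library, and 8 regions became 13, 2 and 4 to 8. After weight loss, 3 loci became 0 by maximum signal, 1 with gene span alone, 1 without both HC 3 and HHC 3 (chosen after seeing the data) and 0 to 3 without 1 library, and 4 regions became 2 with the 20,000 strongest peaks and 3 to 5 without 1 library. Adjusted calls in HC against CC_s (0 regions) became 1 with eBayes without trend, 6 with all libraries of the duration in 1 fit and 0 to 1 without 1 library. Those in HH against CC_l became 1 region with all libraries of the duration, 0 to 4 regions and 0 to 2 loci without 1 library.

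At an unadjusted p under 0.01, the 2 loci of HC against CC_s became 0 (maximum signal), 1 (gene span) and 1 (share of bases), and 1 to 3 without 1 library, and its 8 regions 5 with the strongest peaks and 2 to 8. The 1 locus of HH against CC_l became 2 with gene span and 1 to 3 without 1 library, and its 4 regions 2 without a filter, 1 with the strongest peaks and 2 to 6. In HHC against CCC the 0 loci became 1 with eBayes without trend, a replicate block, all libraries of the duration, the strongest peaks or the share of bases, and 0 to 3 without 1 library, and the 2 regions 5 (median scaling), 0 (strongest peaks) and 0 to 3. CC_s against C gained 1 locus with the strongest peaks and 1 region each with median scaling and the strongest peaks. In CCC against CC_l 1 region became 0 without a filter, by maximum signal or with the strongest peaks, and 3 with a replicate block or median scaling. Promoters open in no library (4) rose to 9 with the strongest peaks and 4 to 5 without 1 library, and those open in all (24) fell to 18 with the strongest peaks, or where the start itself had to lie in a peak, and were 24 to 25 without 1 library. Fits without 1 library were not run for the 2 chow pairs. The causes were not tested.

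Deviations from the group mean correlated between -0.16 and 0.21 for same-numbered mice of a pair, and between -0.22 and 0.22 for the others. With 2 or 3 libraries a group such deviations mirror each other, so this cannot show whether the replicate numbers pair mice. The block moved 1 region of CCC against CC_l to 3, 0 loci of HHC against CCC to 1 and 2 loci of H against C to 0 (Esr1 and Nr1i2). It also ended the calls of the Esr1 region at 335 kb (adjusted p = 0.0529) and a Rora region (0.0521) in H against C, and of the Nr2f1 region (0.0657) and the Rarb locus (0.0605) after weight loss.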
